A study of Mus musculus with 24 samples.

Results

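Asparagine synthetase (Asns), the serine synthesis enzymes Phgdh, Psat1 and Psph, the folate enzymes Shmt1, Shmt2, Mthfd2 and Aldh1l2, and the proline synthesis enzymes Pycr1 and Aldh18a1 were followed by RNA-seq in transplanted mouse mammary tumours. These 10 genes, chosen with earlier results of these data known, were taken by symbol from a table of 47729 genes. All 10 were among the 15736 genes tested. Pieces of spontaneous tumours of B6SJL-Tg(Wnt1)1Hev/J mice, in which the mouse mammary tumour virus (MMTV) promoter expresses Wnt1, a secreted growth factor, in mammary tissue, were implanted in C57BL/6J hosts, and a size near 200 mm3 set day 1. Hosts were dosed with vehicle or with E7386, known as a compound that modulates how β-catenin acts with its coactivator CBP. The oral doses of E7386 were 25 and 50 mg/kg, each given 2 times daily. Tumours were taken on day 4, after 3 days of dosing, or on day 8, after 7 days. At each time there were 4 libraries from vehicle, 4 from 25 mg/kg and 4 from 50 mg/kg, 24 in all. All groups shared the Wnt1 transgene and the wild-type host. The labels give neither the age of the hosts nor whether each library is from an animal of its own. P-values here measure only the spread between libraries, part of which may be technical. Host cells grow into such transplants, so RNA of both is measured.

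Asns transfers the amide nitrogen of glutamine to aspartate and so makes asparagine. Phgdh, Psat1 and Psph convert an intermediate of glycolysis into serine. The Shmt enzymes split serine into glycine and a one-carbon unit carried by folate, Shmt1 mainly in the cytosol and Shmt2 in mitochondria, where Mthfd2 and Aldh1l2 oxidise that unit further. Aldh18a1 reduces glutamate to the precursor that Pycr1 turns into proline. Most of these genes are known targets of the transcription factor Atf4, which cells translate more when amino acids are scarce or the endoplasmic reticulum is stressed, and which binds an element written TGATGNAA (N, any base).

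Promoter sequences show where this element lies next to the start of these genes. RefSeq windows of 250 bases before to 50 bases after the start (build GRCm38.p6, all on the minus strand, 5′ to 3′) were at hand for 9 of the 10 genes, but not for Aldh1l2. The letters TGATGNAA, searched on both strands, were in the window of Asns, with their first base 23 bases before the start, and of Pycr1, 103 bases before it. In GENCODE M21 (GRCm38) the Asns gene spans chr6:7675169-7693254 and Pycr1 chr11:120635712-120643769, while Mthfd2 spans chr6:83305691-83325908 and Shmt1 chr11:60788104-60811718. Of 32851 RefSeq promoter windows of this length, 1304 (3.97%) held the letters. The windows of Asns (chr6:7693160-7693459) and Pycr1 (chr11:120643699-120643998) are shown because they hold the motif, in capitals. Those of Mthfd2 (chr6:83317555-83317854), which had the second largest change, and of Shmt1 (chr11:60811216-60811515), the member that did not rise, are shown as windows without it. A match describes the letters and says nothing of binding.
Asns: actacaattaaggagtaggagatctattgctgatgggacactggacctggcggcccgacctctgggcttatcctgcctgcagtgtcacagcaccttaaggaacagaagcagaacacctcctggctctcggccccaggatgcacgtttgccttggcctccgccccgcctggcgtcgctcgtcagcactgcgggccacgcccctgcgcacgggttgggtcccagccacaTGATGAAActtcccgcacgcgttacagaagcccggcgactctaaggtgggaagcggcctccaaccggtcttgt
Pycr1: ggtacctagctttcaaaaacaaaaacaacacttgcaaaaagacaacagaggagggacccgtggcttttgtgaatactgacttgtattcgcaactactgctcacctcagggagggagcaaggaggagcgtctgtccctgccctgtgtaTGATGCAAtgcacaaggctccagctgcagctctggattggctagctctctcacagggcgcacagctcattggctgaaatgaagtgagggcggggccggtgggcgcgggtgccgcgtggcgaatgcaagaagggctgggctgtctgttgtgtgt
Mthfd2: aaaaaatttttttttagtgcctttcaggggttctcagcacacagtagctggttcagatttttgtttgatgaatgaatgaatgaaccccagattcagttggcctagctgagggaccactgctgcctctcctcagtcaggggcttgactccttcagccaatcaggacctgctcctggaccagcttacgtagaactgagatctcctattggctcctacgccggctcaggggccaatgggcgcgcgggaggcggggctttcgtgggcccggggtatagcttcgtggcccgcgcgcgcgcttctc
Shmt1: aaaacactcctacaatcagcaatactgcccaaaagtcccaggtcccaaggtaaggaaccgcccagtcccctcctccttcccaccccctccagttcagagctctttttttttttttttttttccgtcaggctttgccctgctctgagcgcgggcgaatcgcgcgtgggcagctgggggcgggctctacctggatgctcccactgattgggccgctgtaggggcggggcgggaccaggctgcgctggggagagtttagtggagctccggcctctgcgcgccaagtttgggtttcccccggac

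Values are TPM, a relative abundance of transcripts corrected for gene length, so levels can be compared between genes. The table keeps no read depth. Between 14496 and 15127 genes reached 1 TPM per library, and transcripts encoded in mitochondrial DNA made up 8.29% to 11.3% of the total. The labelled tissue was checked on its markers: Wnt1 lay between 57.6 and 257 TPM and the epithelial gene Epcam between 367 and 514 TPM in the 24 libraries. Library 4 of 50 mg/kg on day 4 stood apart, with a summed skeletal muscle marker level of 468 TPM against 2.76 to 64.4 TPM in the other 3, and a summed erythroid level of 193 TPM against 7.07 to 22.3 TPM. Library 4 of vehicle on day 8 had a summed neutrophil marker level of 308 TPM against 26.4 to 57.1 TPM in the other 3, and a macrophage level of 740 TPM against 299 to 473 TPM. All neutrophil sums here rest on S100a8 and S100a9, since Ly6g reached at most 0.08 TPM in any library. Whether neutrophils were the source of these sums was not tested. Library 1 of 50 mg/kg on day 8 had the highest level of 7 of the 10 enzymes in its group. Its fibroblast marker level was 1254 TPM against 242 to 731 TPM in the others, and its muscle level 227 TPM against 6.74 to 124 TPM. Values that move without one of these libraries are given beside the results. Other libraries also had high marker sums. Library 1 of 25 mg/kg on day 4 had a neutrophil marker level of 275 TPM against 41.2 to 64.2 TPM. Its fibroblast level was 2019 TPM against 383 to 517 TPM, and it was highest for 7 of the 10 enzymes. Library 3 of 25 mg/kg on day 8 had a muscle level of 699 TPM against 2.49 to 29.5 TPM. Within their groups, library 4 of 25 mg/kg on day 8 was highest for 8 of the 10 enzymes and library 3 of vehicle on day 8 for 7. Library 1 of 50 mg/kg on day 4 had an adipocyte level of 83.1 TPM against 0.92 to 6.98 TPM.

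After 3 days at 50 mg/kg, 9 of the 10 enzyme genes rose against vehicle, and in each of the 9 every treated library lay above every vehicle library. Over all genes tested, 9.26% passed the threshold in this comparison, 4.95% of all genes tested passed it upward, and 10.4% lay higher with no overlap of the groups. Fold changes of single genes are differences of mean log2(TPM + 1), with p-values from limma adjusted by the Benjamini-Hochberg method over all 15736 genes and a threshold of 0.05. The median log2 fold change of the 10 genes was 1.15, against 0.033 over all genes. Since the 10 genes were chosen with earlier results of these data known, these contrasts describe them and are no independent support. The summed level of the 10 genes averaged 955 ± 152 TPM at 50 mg/kg and 393 ± 39.6 TPM in vehicle tumours (SD, n = 4 each). In a bulk tumour, more cells of a type and more RNA per cell cannot be told apart.

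**Figure D1:**
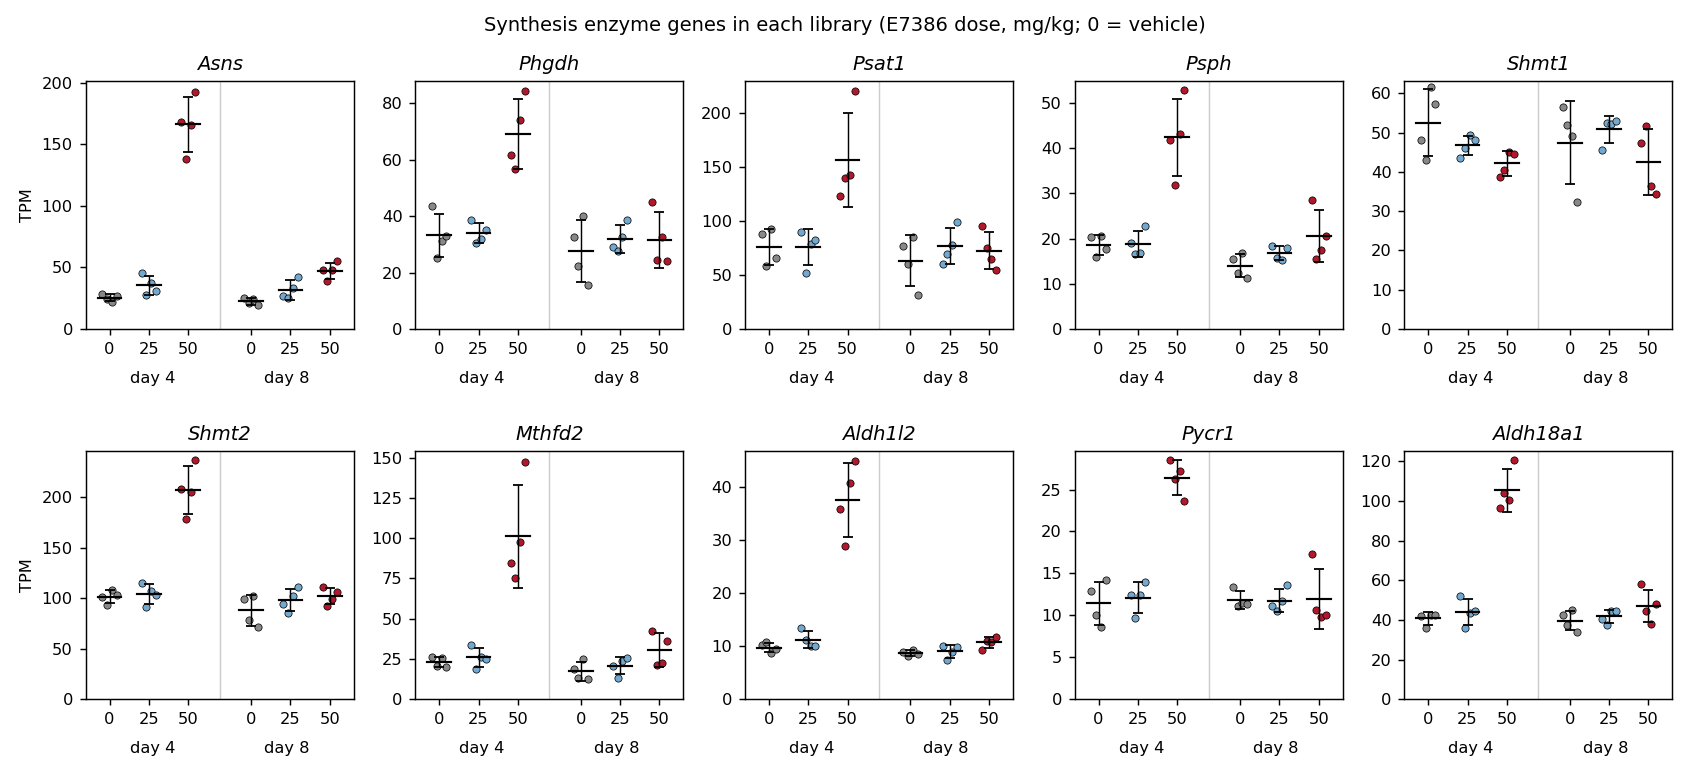
TPM of the 10 enzyme genes in each library, by E7386 dose (0, vehicle) and day, with 1 panel per gene, points for libraries and bars for the mean and SD of 4 libraries. On day 4 every 50 mg/kg point lies above every vehicle point in all panels except that of Shmt1, and on day 8 this holds for Asns and Aldh1l2.

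Asns, which makes asparagine, changed most among the 10 genes. It had 168, 138, 166 and 193 TPM in 50 mg/kg tumours on day 4, against 28.2, 24.4, 22.3 and 27.0 TPM in vehicle tumours. The lowest treated library was thus several times higher than the highest vehicle library. The ratio of the means was 6.53 and the log2 fold change 2.66 ± 0.16 (SE; 95% interval 2.32 to 2.99; adjusted p = 2.01e-09). Asns had the smallest p-value of all genes tested in this comparison and ranked 4 by log2 fold change. By mean TPM among the 10 genes it ranked 2 at 50 mg/kg, behind Shmt2, and 6 in vehicle tumours. Its relative spread was alike in both groups, with a coefficient of variation of 13.5% at 50 mg/kg and 10.4% in vehicle tumours.

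The enzymes of serine synthesis all rose, with log2 fold changes between 1.02 and 1.13. Phgdh, the first enzyme of the route, had 61.8, 56.8, 73.96 and 84.4 TPM at 50 mg/kg, against 43.5, 25.1, 31.1 and 33.0 TPM in vehicle tumours. Its means differed 2.09-fold (log2 fold change 1.05 ± 0.23, SE; adjusted p = 0.0081). Reads of Phgdh may be shared with processed pseudogenes, of which the closest, Gm7901, matched it at 98.7% over 1597 bases. Gm7901 itself had 2.36 to 3.5 TPM at 50 mg/kg and 0.77 to 2.09 TPM in vehicle tumours, small next to Phgdh.

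Psat1, the transaminase that follows Phgdh, had 123, 140.1, 143 and 220.5 TPM at 50 mg/kg, against 87.9, 58.7, 92.9 and 65.5 TPM in vehicle tumours. Its ratio was 2.05 and its log2 fold change 1.02 ± 0.26 (SE; adjusted p = 0.0195), the least certain of the 9 rises. Library 4 of the treated group was the highest by far. Without it the log2 fold change of Psat1 was 0.84 (adjusted p = 0.0603). The call also ended without library 2 (0.90, adjusted p = 0.0554) or library 4 (0.96, adjusted p = 0.0572) of vehicle.

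Psph, the phosphatase that releases serine, had 41.8, 31.9, 43.1 and 52.8 TPM at 50 mg/kg, against 20.3, 15.8, 20.5 and 17.8 TPM in vehicle tumours. Its log2 fold change was 1.13 ± 0.17 (SE; ratio 2.28; adjusted p = 0.00019). Of its 4329 exonic bases, 452 (10.4%) lie opposite exons of the more abundant gene Cct6a. Whether the counting used the strand is not given in the sources used here, so the level of Psph is uncertain. Cct6a averaged 358 TPM at 50 mg/kg and 383 TPM in vehicle tumours.

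The 3 mitochondrial folate enzymes rose, and the cytosolic Shmt1 did not pass the threshold. Mthfd2, the mitochondrial dehydrogenase and cyclohydrolase, had 84.9, 75.1, 97.4 and 147 TPM at 50 mg/kg, against 26.0, 20.4, 25.3 and 20.2 TPM in vehicle tumours (ratio 4.40; log2 fold change 2.05 ± 0.26, SE; adjusted p = 3.27e-05). Aldh1l2, the mitochondrial formyltetrahydrofolate dehydrogenase, had 35.7, 28.8, 40.7 and 44.8 TPM, against 10.1, 10.7, 8.61 and 9.35 TPM (ratio 3.87; log2 fold change 1.84 ± 0.12, SE; adjusted p = 2.53e-09). Both rose in every treated library, and the vehicle libraries of Aldh1l2 varied little. Aldh1l2 shares 14.1% of its exonic bases with the opposite strand gene D10Wsu102e, which averaged 29.3 TPM at 50 mg/kg and 30.1 TPM in vehicle tumours.

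Shmt2, the mitochondrial serine hydroxymethyltransferase, had 208, 179, 206 and 237 TPM at 50 mg/kg, against 102, 93.7, 108 and 103 TPM in vehicle tumours (ratio 2.04; log2 fold change 1.02 ± 0.11, SE; adjusted p = 3.53e-06). It was the most abundant of the 10 in both groups. Its cytosolic counterpart Shmt1 had 38.6, 40.6, 45.1 and 44.6 TPM, against 48.1, 43.0, 61.6 and 57.2 TPM, so the groups overlapped. The log2 fold change of Shmt1 was -0.30 ± 0.15 (SE; 95% interval -0.60 to 0.0058; adjusted p = 0.202). The interval of Shmt2 was 0.79 to 1.24. Opposite strand genes share few exonic bases with them, Ndufa4l2 1.03% of those of Shmt2 and Smcr8 4.74% of those of Shmt1. The quotient of Shmt2 over Shmt1 averaged 4.92 ± 0.51 at 50 mg/kg and 1.96 ± 0.21 in vehicle tumours (SD, n = 4 each), with ranges of 4.40 to 5.39 and 1.76 to 2.18.

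**Figure D2:**
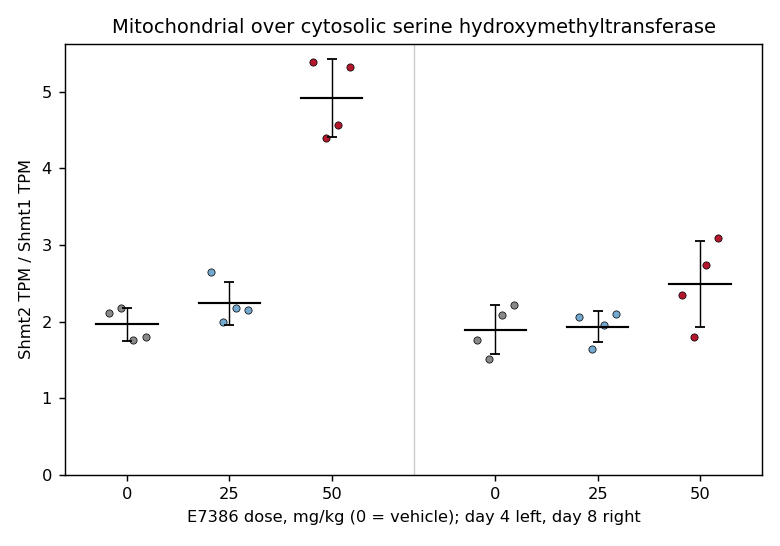
Quotient of Shmt2 TPM over Shmt1 TPM in each library, by E7386 dose (0, vehicle), day 4 on the left and day 8 on the right, with the mean and SD of 4 libraries. On day 4 the 50 mg/kg libraries lie between 4.40 and 5.39, above the 1.996 to 2.65 at 25 mg/kg and the 1.76 to 2.18 in vehicle tumours, and on day 8 the 50 mg/kg libraries spread from 1.79 to 3.09 and overlap the vehicle range of 1.52 to 2.22.

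Both proline enzymes rose. Aldh18a1, which catalyses the first steps from glutamate, had 96.2, 104, 100.3 and 121 TPM at 50 mg/kg, against 42.1, 35.7, 42.6 and 42.5 TPM in vehicle tumours (ratio 2.59; log2 fold change 1.35 ± 0.12, SE; adjusted p = 3.08e-07). Pycr1, the mitochondrial reductase of the last step, had 28.6, 26.3, 27.2 and 23.6 TPM, against 12.9, 10, 8.55 and 14.2 TPM (ratio 2.31; log2 fold change 1.16 ± 0.16, SE; adjusted p = 7.38e-05). Pycr1 was the only one of the 9 risen genes that was lowest in library 4 of the treated group, the library with the high muscle and erythroid levels.

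**Figure D3:**
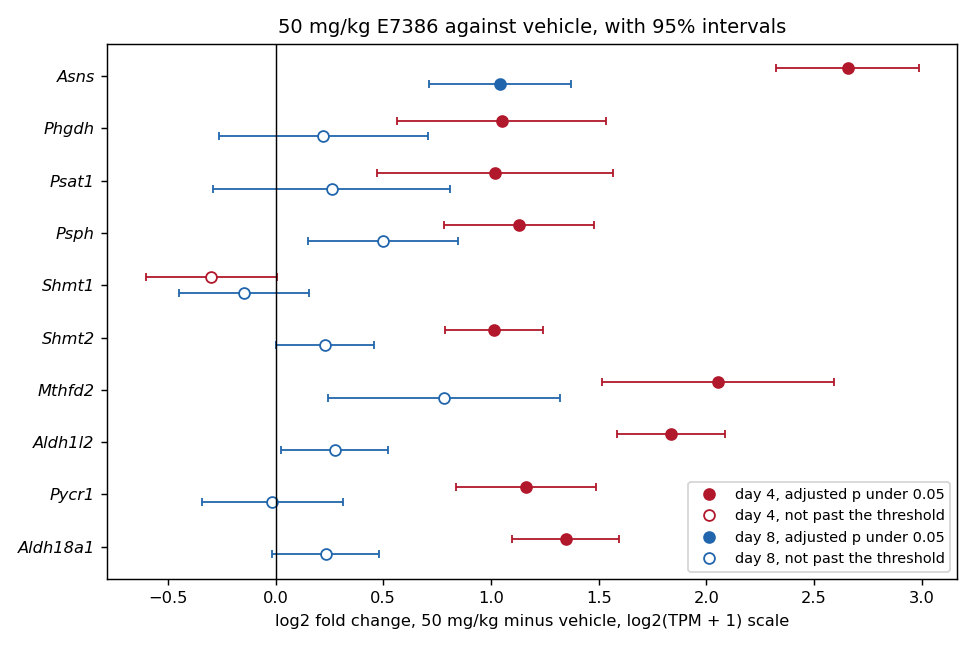
Log2 fold change of each enzyme gene at 50 mg/kg against vehicle with its 95% interval, on day 4 and on day 8, on the log2(TPM + 1) scale, with filled points for an adjusted p under 0.05. The 9 genes called on day 4 lie between 1.02 and 2.66, while on day 8 Asns alone is called, at 1.04.

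Library 4 of the 50 mg/kg group on day 4 was highest for 8 of the 10 genes. Without it, 8 of 10 were called, with Psat1 lost, and the log2 fold changes of Asns and Mthfd2 were 2.58 and 1.86. Marker levels of other cells were set beside these rises. Summed mammary epithelial markers were 2867 to 2990 TPM at 50 mg/kg and 2213 to 2772 TPM in vehicle tumours, with none of the 6 genes called. Macrophage markers summed to 449 to 1004 TPM at 50 mg/kg and 323 to 695 TPM in vehicle tumours. Erythroid markers summed to 22.3, 7.07, 9.42 and 193 TPM at 50 mg/kg and to 106 to 138 TPM in vehicle tumours, so that 3 of the 4 treated libraries lay below every vehicle library and library 4 above. Skeletal muscle markers summed to 2.76 to 468 TPM at 50 mg/kg and 4.05 to 117 TPM in vehicle tumours. Neutrophil markers summed to 2.72 to 37.4 TPM at 50 mg/kg and 11.6 to 59.6 TPM in vehicle tumours, and T cell markers to 3.39 to 6.95 TPM at 50 mg/kg and 1.75 to 4.31 TPM in vehicle tumours. The neutrophil marker Ly6g had a median of 0 TPM. The part of these cells in the rises was not tested.

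Atf4 itself, the transcription factor named above, passed the threshold at the RNA level in no comparison. It had 216, 216, 235 and 339 TPM at 50 mg/kg on day 4, against 198, 197, 192 and 187 TPM in vehicle tumours. The groups did not overlap, but the log2 fold change was 0.35 ± 0.13 (SE) and missed the threshold (adjusted p = 0.104). The highest treated value, 339 TPM, was in library 4. Against 25 mg/kg on day 4 Atf4 had a log2 fold change of 0.49 (adjusted p = 0.0605), also without overlap. Of all genes tested, 10.4% lay higher without overlap against vehicle and 5.42% against 25 mg/kg. Atf4 also lay lower without overlap at 25 mg/kg than in vehicle on day 4 (176 and 194 TPM, log2 fold change -0.14, adjusted p = 0.920). The same held for vehicle on day 8 against day 4 (162 and 194 TPM, -0.26, adjusted p = 0.476). On day 8 Atf4 averaged 163 TPM at 50 mg/kg and 162 TPM in vehicle tumours.

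Other genes of the same pathways were counted next. A list of 60 other gene symbols of asparagine and glutamate, serine and glycine, folate, and proline and ornithine metabolism gave 52 tested genes. Of these, 5 rose and 3 fell on day 4 at 50 mg/kg (4.95% and 4.31% of all genes did). The median log2 fold change of the 52 genes was -0.065. On the asparagine and glutamate list (11 tested, 4 rose, 1 fell), the mitochondrial alanine transaminase Gpt2 averaged 67.1 TPM at 50 mg/kg and 32.9 TPM in vehicle tumours (1.01, adjusted p = 5.26e-07), and the cytosolic aspartate transaminase Got1 16.7 and 8.21 TPM (0.91, adjusted p = 0.0100). Glutamine synthetase, Glul, averaged 115 TPM against 63.5 TPM in vehicle tumours (0.84, adjusted p = 0.0163), and glutamate dehydrogenase, Glud1, 62.7 TPM against 51.2 TPM (0.28, adjusted p = 0.00146). The mitochondrial aspartate transaminase Got2 fell to 136 TPM at 50 mg/kg, against 170 TPM in vehicle tumours (-0.32, adjusted p = 0.0016).

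Among 9 tested serine and glycine genes, Cth, which makes cysteine from cystathionine, rose (15.5 TPM at 50 mg/kg and 7.39 TPM in vehicle tumours; log2 fold change 0.94, adjusted p = 0.00569) and none fell. Of 20 tested genes on the folate list none rose and 1 fell, Mat2a, which makes S-adenosylmethionine (87.8 and 107 TPM, -0.29, adjusted p = 0.0405). It overlaps the opposite strand transcript Particl over 11.3% of its exonic bases. Of 12 tested proline and ornithine genes none rose and 1 fell, P4ha1, a subunit of the collagen prolyl hydroxylase (24.1 TPM at 50 mg/kg and 36.7 TPM in vehicle tumours; -0.60, adjusted p = 0.00181). P4ha1 modifies proline in collagen and makes none.

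**Figure D4:**
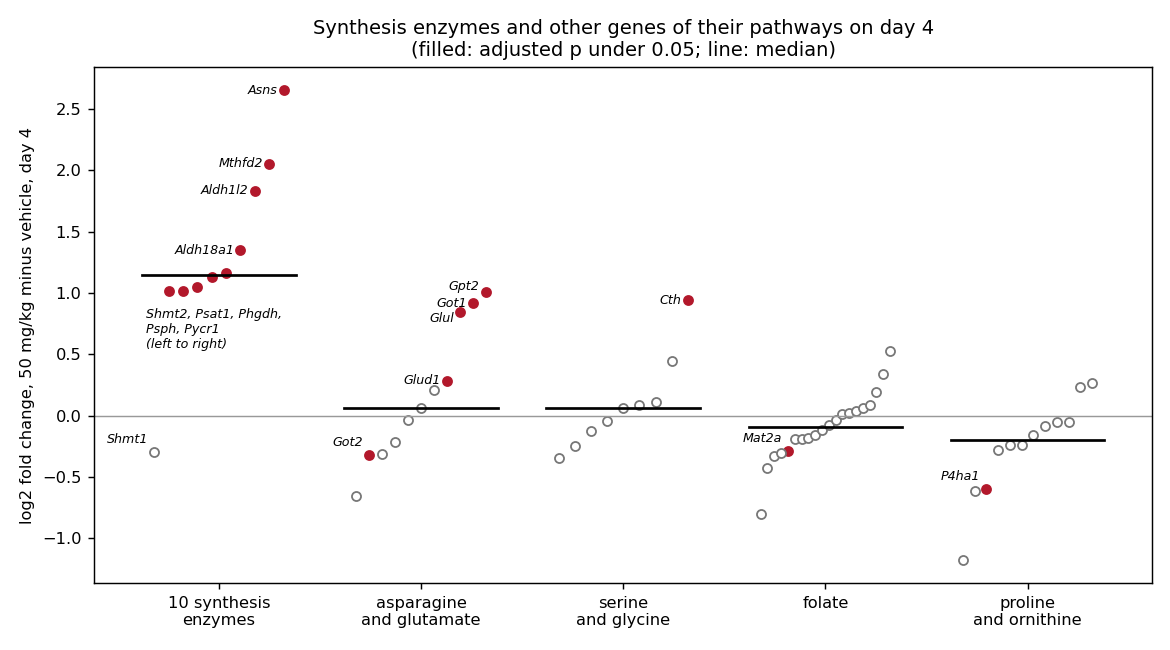
Log2 fold change at 50 mg/kg against vehicle on day 4 for the 10 synthesis enzymes and for the other tested genes of 4 pathway lists, each point a gene, filled where the adjusted p is under 0.05, with a line at the median of each column. The enzymes' median is 1.15, and the medians of the other lists are 0.061, 0.059, -0.096 and -0.20.

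Some paralogs of the enzymes were chosen for description after their values were seen, and those given here did not pass the threshold on day 4. The cytosolic folate enzyme Mthfd1 averaged 31 TPM at 50 mg/kg and 39.3 TPM in vehicle tumours (log2 fold change -0.33, adjusted p = 0.0873). Its mitochondrial relatives Mthfd1l (15.6 and 10.5 TPM; 0.53, adjusted p = 0.0590) and Mthfd2l (12.2 and 11.4 TPM; 0.08, adjusted p = 0.661) also missed it. Aldh1l1, the cytosolic counterpart of Aldh1l2, was near the lower limit of the values tested (1.72 and 1.42 TPM; 0.015, adjusted p = 0.981). Pycrl, a proline reductase, averaged 17 TPM at 50 mg/kg and 19.1 TPM in vehicle tumours (-0.16, adjusted p = 0.255).

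At 25 mg/kg none of the 10 genes passed the threshold on day 4 or on day 8, and limma called 0 of 15736 genes on either day. At an unadjusted p under 0.05 there were 724 genes on day 4 and 468 on day 8, and Asns was the 1 enzyme among them both times. On day 4 Asns had 45.6, 27.7, 37.5 and 31.01 TPM at 25 mg/kg, overlapping vehicle at its lower end (log2 fold change 0.44, 95% interval 0.11 to 0.77, adjusted p = 0.914). Its highest value there was in library 1, named above for high neutrophil and fibroblast marker levels. With 1 library left out, the log2 fold change of Asns lay between 0.32 and 0.55. On day 8 it had 26.6, 24.8, 33.5 and 42.3 TPM, against 25.2, 21.1, 24.1 and 19.4 TPM in vehicle tumours (0.46, 95% interval 0.13 to 0.79, adjusted p = 1.00). The median log2 fold changes of the 10 genes at 25 mg/kg were 0.074 on day 4 and 0.21 on day 8. Without library 4 of vehicle, the day 8 median was 0.037 and the value of Asns 0.39 (adjusted p = 0.924).

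For the other 9 genes every 25 mg/kg group overlapped its vehicle group on both days. On day 4 Mthfd2 ranged over 18.7 to 33.5 TPM at 25 mg/kg and 20.2 to 26.0 TPM in vehicle tumours, and Phgdh over 30.4 to 38.6 TPM at 25 mg/kg and 25.1 to 43.5 TPM in vehicle tumours. Shmt2 ranged over 91.7 to 115 TPM at 25 mg/kg and 93.7 to 108 TPM in vehicle tumours, with a 95% interval of its log2 fold change from -0.19 to 0.26. That interval holds no value near the 1.02 seen at the higher dose. The interval of Aldh1l2, -0.068 to 0.43, and that of Aldh18a1, -0.15 to 0.35, also lay below their values at 50 mg/kg. Intervals of Psat1 (-0.56 to 0.54) and Phgdh (-0.43 to 0.54) were the widest beside that of Mthfd2 (-0.39 to 0.69).

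The doses differed on day 4. Set directly against 25 mg/kg, 50 mg/kg gave higher levels of the same 9 genes, each without overlap, where 2.15% of all genes passed (1.15% of all genes upward) and 5.42% lay higher without overlap. The log2 fold change was 2.21 for Asns (adjusted p = 3.04e-08), 1.90 for Mthfd2 (0.000113), 1.65 for Aldh1l2 (3.04e-08), and 1.24 for Aldh18a1 (1.37e-06). For the rest it lay between 0.98 for Shmt2 and 1.12 for Psph. The calls of Psat1 (1.02, adjusted p = 0.0438) and Phgdh (0.99, adjusted p = 0.0259) were the weakest and were lost in 13 and 6 of the alternatives tried. Psat1 lost its call without any 1 of the 8 libraries, with values between 0.85 (library 4 of 50 mg/kg) and 1.13 and adjusted p from 0.0510 to 0.151. Phgdh lost it without library 3 or 4 of 50 mg/kg (0.96 and 0.89) or library 2, 3 or 4 of 25 mg/kg (0.94, 0.97 and 1.01), with adjusted p from 0.0709 to 0.0895. Vehicle and 25 mg/kg tumours each serve in other comparisons here, so the comparisons are not independent.

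On day 8 Asns was the 1 enzyme gene that passed the threshold at 50 mg/kg, where 2.78% of all genes did (0.763% of all genes upward). It had 48.1, 38.9, 47.8 and 55.0 TPM at 50 mg/kg, against 25.2, 21.1, 24.1 and 19.4 TPM in vehicle tumours, again without overlap. The ratio was 2.11 and the log2 fold change 1.04 ± 0.16 (SE; 95% interval 0.71 to 1.37; adjusted p = 0.00109). Without library 4 of vehicle it was 0.98 (adjusted p = 0.00261), and without library 1 of 50 mg/kg 1.03 (adjusted p = 0.00319). Its mean at 50 mg/kg was below that at the same dose on day 4, 47.5 ± 6.57 TPM on day 8 against 166 ± 22.4 TPM.

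The other 9 genes did not pass on day 8. Mthfd2 had 42.5, 21.1, 22.6 and 36.4 TPM at 50 mg/kg, against 18.6, 12.9, 25.2 and 12.6 TPM in vehicle tumours (log2 fold change 0.78, 95% interval 0.25 to 1.32, adjusted p = 0.104). Psph had 28.6, 15.5, 17.4 and 20.6 TPM, against 15.5, 12.3, 16.9 and 11.4 TPM (0.50, 95% interval 0.15 to 0.85, adjusted p = 0.108). Aldh1l2 had 9.34, 11, 10.7 and 11.8 TPM, against 8.78, 8.08, 9.27 and 8.50 TPM (0.27, 95% interval 0.026 to 0.52, adjusted p = 0.228). Aldh1l2 and Asns were the 2 enzymes whose groups did not overlap, and 1.58% of all genes lay higher in that way. The log2 fold change was 0.23 for Shmt2 (adjusted p = 0.275), 0.23 for Aldh18a1 (0.316), 0.26 for Psat1 (0.650), 0.22 for Phgdh (0.664), -0.015 for Pycr1 (0.973) and -0.15 for Shmt1 (0.642). The median over the 10 genes was 0.25, against 0.15 without library 4 of vehicle and 0.16 without library 1 of 50 mg/kg. Among the 52 other pathway genes tested, 1 passed on day 8, where 2.02% of all genes were lower: P4ha1, at 20.8 TPM at 50 mg/kg and 38.5 TPM in vehicle tumours (-0.85, adjusted p = 0.000226).

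Several of these day 8 values rest on library 4 of vehicle, which was lowest for 8 of the 10 genes and carried the high neutrophil and macrophage marker levels. Without it the log2 fold change was -0.014 for Phgdh, -0.040 for Psat1 and 0.66 for Mthfd2 (adjusted p = 0.146), -0.32 for Shmt1 (adjusted p = 0.122) and 0.14 for Shmt2 (adjusted p = 0.468). Library 1 of 50 mg/kg was the highest in its group for Pycr1, at 17.3 TPM against 9.82 to 10.7 TPM in the others. Without this library the log2 fold change was -0.19 for Pycr1, 0.039 for Phgdh, 0.12 for Psat1, 0.13 for Aldh18a1 and 0.33 for Psph, none of them called. Mammary epithelial markers summed to 2827 to 4542 TPM at 50 mg/kg and 2638 to 3240 TPM in vehicle tumours on day 8, and Krt14 (log2 fold change 0.84, adjusted p = 0.0103) and Krt5 (0.51, adjusted p = 0.0288) were called. Macrophage markers summed to 599 to 755 TPM at 50 mg/kg, against 299, 446, 473 and 740 TPM in vehicle tumours. Endothelial markers summed to 36.9 to 72.9 TPM at 50 mg/kg and 48.7 to 140 TPM in vehicle tumours, and erythroid markers to 14.7 to 221 TPM at 50 mg/kg and 53.4 to 233 TPM in vehicle tumours. The part of these cells in the day 8 values was not tested.

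On day 8 the 2 doses were not told apart for the enzymes: none of the 10 passed for 50 mg/kg against 25 mg/kg, where 1.08% of all genes did and 1 enzyme had an unadjusted p under 0.05. That was Asns, with a log2 fold change of 0.58 (95% interval 0.25 to 0.91; adjusted p = 0.0711). Its levels on day 8 nonetheless lay in the order of dose by mean, and the 25 mg/kg library with 42.3 TPM exceeded the lowest at 50 mg/kg, 38.9 TPM. With 1 library left out, the log2 fold change of Asns lay between 0.48 and 0.73. Of these omissions, only that of the 25 mg/kg library with 42.3 TPM gave a call (0.73, adjusted p = 0.0374). Among all alternatives the adjusted p reached 0.208.

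The difference between days was tested as the change of the 50 mg/kg effect, day 8 minus day 4. It was negative and called for 5 of the 10 genes, where 1.44% of all genes were called (1.09% of all genes lower). The values were -1.61 ± 0.22 for Asns (SE; adjusted p = 0.000617), -1.56 ± 0.17 for Aldh1l2 (0.000133), -1.18 ± 0.22 for Pycr1 (0.0086), -1.11 ± 0.17 for Aldh18a1 (0.00145) and -0.79 ± 0.15 for Shmt2 (0.0127, and 0.0627 after scaling by trimmed means). The difference missed the threshold for Mthfd2 (-1.27, adjusted p = 0.0857), Phgdh (-0.83, 0.209), Psat1 (-0.76, 0.323), Psph (-0.63, 0.182) and Shmt1 (0.15, 0.785).

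Vehicle tumours of day 8 and day 4 were compared to see whether the baseline moved. No enzyme passed, and limma called 0 of all genes, with 1749 at an unadjusted p under 0.05. Of the 10 enzymes, 9 had a negative log2 fold change, and Psph was the 1 with an unadjusted p under 0.05 (-0.39, adjusted p = 0.422). Without library 4 of day 8, 7 were negative, the median over the 10 was -0.094 in place of -0.20, and Psph was at -0.31 (adjusted p = 0.652). The summed level of the 10 genes was 390, 316, 409 and 248 TPM on day 8, the last in library 4, and 338 to 422 TPM on day 4.

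The order of the 10 genes by level was read from the TPM, which is per length. In vehicle tumours of day 4 it ran from Shmt2 (102 ± 6.13 TPM) over Psat1 (76.3 ± 16.7 TPM), Shmt1 (52.5 ± 8.47 TPM), Aldh18a1 (40.7 ± 3.35 TPM), Phgdh (33.2 ± 7.69 TPM), Asns (25.5 ± 2.66 TPM), Mthfd2 (23.0 ± 3.1 TPM) and Psph (18.6 ± 2.24 TPM) to Pycr1 (11.4 ± 2.61 TPM) and Aldh1l2 (9.68 ± 0.896 TPM; SD, n = 4). Neighbours such as Asns and Mthfd2, or Pycr1 and Aldh1l2, overlapped in their libraries. At 50 mg/kg on day 4 Shmt2 stayed first and Shmt1 stood at rank 8, below Mthfd2 and Psph by mean, though its libraries overlapped those of Psph. Mthfd2 averaged 101 ± 32.1 TPM there and overlapped Aldh18a1, at 105 ± 10.8 TPM.

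The enzymes differed in how alike their patterns over the 24 libraries were. Likeness was measured as the root mean square difference of log2(TPM + 1), each gene centred on its mean, and is a description only. Shmt2 and Aldh18a1 were the most alike, at 0.14, followed by Psph and Shmt2 at 0.18, Psph and Aldh18a1 at 0.19, and Phgdh and Psat1 at 0.20. The least alike were Asns and Shmt1, at 1.06.

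The same measure was taken over the tested genes outside the 10 enzymes, leaving out predicted genes named Gm with digits or ending in Rik. Among these, the nearest to Asns were the transcription factor Atf5 (0.22) and the cystine and glutamate exchanger Slc7a11 (0.33). The glycine transporter Slc6a9 (0.33) and the cysteinyl-tRNA synthetase Cars (0.39) followed. The enzyme Mthfd2 lay at 0.31 from Asns, nearer than Slc7a11. Asns itself varied by 0.97 around its mean on this scale. Atf5 averaged 255 TPM at 50 mg/kg on day 4 and 39.8 TPM in vehicle tumours, and 67.3 TPM at 50 mg/kg on day 8 and 32.9 TPM in vehicle tumours. Part of Atf5 lies opposite Nup62 (4.11% of its exonic bases) and part of Slc6a9 opposite Ccdc24 (27.8%), which leaves the levels of both uncertain. On day 4 Nup62 averaged 94.6 TPM at 50 mg/kg and 89.8 TPM in vehicle tumours, and Ccdc24 0.688 and 1.165 TPM. Nearest to Mthfd2 were Cars (0.35), the neutral amino acid transporter Slc7a5 (0.37), Slc7a11 (0.37) and Atf5 (0.39). Nearest to Psat1 were the cationic amino acid transporter Slc7a1 (0.28), Cth (0.29), and the glycyl and threonyl-tRNA synthetases Gars (0.29) and Tars (0.31).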

How the data were processed

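RNA was measured by RNA-seq in 24 tumour libraries, 6 groups of 4. Per the labels' protocols, RNA was purified with RNeasy columns, and a SureSelect strand-specific kit took 1 µg of it. The submitters' processing notes name STAR 2.5.0c, RSEM 1.2.31, Trimmomatic 0.36 and bcl2fastq, and the build mm10 (GRCm38). The sources used here do not give the annotation release, the parameters or whether counting used strand. The authors deposited 1 table of TPM values for 47729 genes. TPM keeps no read depth, so depth is unknown and no counting interval is given, and TPM values are relative, so abundant genes that rise lower the others.

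Values were transformed to log2(TPM + 1), which understates changes of low genes, and the test took the 15736 genes that reached 1 TPM in 4 or more libraries. Group means were fitted to all 24 libraries by limma 3.58.1 under R 4.3.3 (eBayes intensity trend on, 18 degrees of freedom). Contrasts gave two-sided p-values, adjusted over all genes tested by the Benjamini-Hochberg method. The fit was tested on simulated data. Of the gene identifiers, 47224 matched GENCODE M21, which gave overlaps. Promoters are from RefSeq, GRCm38.p6. All 10 enzymes are named, with Atf4 and every other pathway gene that passed for 50 mg/kg on day 4 or day 8. Also named are the 4 genes nearest to Asns, Mthfd2 and Psat1, taken outside the 10 enzymes and without predicted genes. Members and lists were chosen with earlier results of these data known. Alternatives were trimmed-mean scaling, quantile normalization, no filter or one at 5 TPM, pseudocounts of 0.1 and 5, the compared groups alone, library weights, a replicate block and leaving out each library.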

Additional observations from a re-analysis of the deposited data

Results flagged for a closer look

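In 4 of the 60 sets of 4 values, 1 per enzyme and group, 1 library stood apart from the other 3 by Dixon's criterion at its 95% level, which chance flags in about 1 of 20 groups. Aldh18a1 was at 35.7 TPM in library 2 of vehicle on day 4, against 42.1 to 42.6 TPM in the others. Shmt1 was at 45.6 TPM in library 1 of 25 mg/kg on day 8, against 52.1 to 53.0 TPM. Pycr1 was at 17.3 TPM in library 1 of 50 mg/kg on day 8, against 9.82 to 10.7 TPM, and at 13.35 TPM in library 1 of vehicle on day 8, against 11.1 to 11.4 TPM. Leaving out any of these libraries changed the direction of no called value.

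The effect of 50 mg/kg differed between day 8 and day 4, by the test of the difference itself, for Asns (-1.61), Aldh1l2 (-1.56), Pycr1 (-1.18), Aldh18a1 (-1.11) and Shmt2 (-0.79) on the log2 scale.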

How the results depend on the processing

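Of 1440 log2 fold changes of single enzymes under an alternative, 1406 stayed on the same side of the threshold (48 of these, uncalled, with another sign), 23 lost and 11 gained a call, and none that was called turned round. For 50 mg/kg against vehicle on day 4, 9 enzymes were called in every alternative that kept all libraries and 8 to 9 when 1 was left out. For 50 against 25 mg/kg on day 4 they were 7 to 9. On day 8 the enzymes called were 1, but 2 with library weights (Shmt1 added, -0.41, adjusted p = 0.0255) and 2 with the replicate block (Mthfd2 added, 0.78, adjusted p = 0.0480). For 50 against 25 mg/kg on day 8 the count was 0, but 2 with library weights, 1 with the replicate block (Asns, adjusted p = 0.0432) and 0 to 1 when a library was left out. The change between days was called for 5 enzymes, but for 4 with trimmed-mean scaling (Shmt2 lost, adjusted p = 0.0627), 6 with the replicate block (Mthfd2 added, -1.27, adjusted p = 0.0332) and 9 with library weights. Of the other pathway genes on day 4, 8 were called, but 17 with library weights (7 rose, 10 fell), 13 in a fit of the compared groups alone (7 and 6), and 6 to 9 without 1 library, an alternative added after the data were seen. Over all genes, 1457 were called for 50 mg/kg on day 4 (1052 to 3205 in the alternatives with all libraries, 696 to 1305 without 1), 438 on day 8 (12 to 2888, and 180 to 1176), 339 for 50 against 25 mg/kg on day 4 (246 to 1263, and 148 to 353), 170 on day 8 (91 to 2264, and 38 to 293) and 226 for the change between days (68 to 745, and 92 to 602). The cause of these shifts was not tested. The replicate numbers were not taken as pairs, since the labels tie them to no shared animal or batch. Of the 15 pairs of each number, 2 to 9 correlated above 0.1, and the median correlation per number ran from -0.051 to 0.16. Whether the numbers mark something shared was not tested. Of the libraries of other groups, the best correlated one had the same number for 11 of 24 libraries, a count given without its share by chance. The share of rises among all calls depended on the scaling: 779 up and 678 down on day 4, but 602 and 825 with trimmed means and 654 and 874 with quantiles; on day 8, 120 and 318, but 194 and 221, and 170 and 281; and for the change between days, 55 and 171, but 61 and 76, and 59 and 97. With 4 libraries a group and no depth in the table, small changes of low genes are not resolved.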
